A study of Mus musculus with 10 samples.

Results

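The genes of the circadian clock were followed across mammary gland RNA-seq libraries of adult virgin female C57BL/6 mice. The members were 10 genes listed by name, *Arntl* (also called *Bmal1*), *Clock*, *Npas2*, *Per1*, *Per2*, *Per3*, *Cry1*, *Cry2*, *Nr1d1* and *Dbp*. They were matched by symbol to the Ensembl identifiers of 46983 counted genes, and all 10 were among the 15610 genes that passed the filter on low counts. They were listed by name and not by a cut on expression, although earlier results of these data were known when they were chosen. Positions are those of the build GRCm38, 1-based. There were 5 libraries of mice given the control diet, CFA (1 mg FA/kg, where FA is folic acid), and 5 of mice given the higher intake, HFA (5 mg FA/kg), 1 library per mouse. Mice of both groups ate their test diet for 4 weeks and then the same maintenance diet for 4 weeks, until the right thoracic fat pad was taken whole at postnatal day 130 after a fast. The libraries are named CFA1 to CFA5 and HFA1 to HFA5. The question was whether the libraries, and the diets, differed in the clock genes. The clock time of tissue collection is not given in the sources used here.

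The mammalian clock is a feedback loop of transcription that runs in most tissues, mammary gland, fat and muscle included. ARNTL pairs with CLOCK or its relative NPAS2, binds E-boxes (CACGTG, or the related CACGTT) and drives the *Per* and *Cry* genes, *Nr1d1* and *Dbp*. The PER and CRY proteins then hold back that drive, NR1D1 represses *Arntl* and *Npas2* through ROR elements, and DBP acts through D-boxes on genes such as *Per3*. In peripheral tissues of mice the transcripts of *Arntl* and *Npas2* are therefore highest at about the time of day when those of *Nr1d1* and *Dbp* are lowest, and the *Per* transcripts peak after *Nr1d1*.

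The promoter sequences of 5 members are shown, with matches to the elements named above in capital letters. They are RefSeq sequences of the build GRCm38.p6, 300 bases each, from 250 bases before the transcription start to 50 bases after it, written 5′ to 3′ on the strand of the gene. An entry was found for 9 of the 10 members, not for *Per2*. The E-box CACGTG was searched on both strands, as were CACGTT, the D-box TTANGTAA and the ROR element TAGGTCA.
*Per1* (chr11:69098699-69098998, plus strand, first start, E-box in capitals): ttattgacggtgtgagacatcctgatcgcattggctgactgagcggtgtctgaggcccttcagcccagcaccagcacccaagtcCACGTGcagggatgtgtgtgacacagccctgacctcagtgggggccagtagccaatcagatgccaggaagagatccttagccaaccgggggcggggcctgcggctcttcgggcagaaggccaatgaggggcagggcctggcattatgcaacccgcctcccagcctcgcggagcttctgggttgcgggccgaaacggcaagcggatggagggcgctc
*Cry1* (chr10:85185005-85185304, minus strand, CACGTT read on the other strand and then the E-box in capitals): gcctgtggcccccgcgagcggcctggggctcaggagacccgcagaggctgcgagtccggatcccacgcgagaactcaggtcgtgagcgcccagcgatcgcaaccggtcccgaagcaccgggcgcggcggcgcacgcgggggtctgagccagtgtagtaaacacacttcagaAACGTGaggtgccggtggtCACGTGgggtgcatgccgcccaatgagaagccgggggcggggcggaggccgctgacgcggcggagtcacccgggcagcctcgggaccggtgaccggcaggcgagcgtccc
*Nr1d1* (chr11:98775328-98775627, minus strand, CACGTT read on the other strand in capitals): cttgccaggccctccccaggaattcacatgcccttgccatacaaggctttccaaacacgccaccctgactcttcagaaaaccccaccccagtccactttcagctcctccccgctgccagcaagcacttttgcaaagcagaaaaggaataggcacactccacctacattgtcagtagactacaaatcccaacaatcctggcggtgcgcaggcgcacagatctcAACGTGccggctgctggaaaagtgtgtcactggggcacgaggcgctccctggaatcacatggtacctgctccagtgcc
*Per3* (chr4:151044616-151044915, minus strand, 2 D-boxes in capitals): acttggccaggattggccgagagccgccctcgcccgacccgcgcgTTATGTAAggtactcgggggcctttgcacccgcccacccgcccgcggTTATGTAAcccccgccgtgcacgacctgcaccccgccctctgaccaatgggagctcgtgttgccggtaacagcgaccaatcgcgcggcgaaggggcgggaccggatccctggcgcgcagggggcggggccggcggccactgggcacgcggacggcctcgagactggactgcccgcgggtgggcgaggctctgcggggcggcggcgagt
*Arntl* (chr7:113207261-113207560, plus strand, second start, ROR element in capitals): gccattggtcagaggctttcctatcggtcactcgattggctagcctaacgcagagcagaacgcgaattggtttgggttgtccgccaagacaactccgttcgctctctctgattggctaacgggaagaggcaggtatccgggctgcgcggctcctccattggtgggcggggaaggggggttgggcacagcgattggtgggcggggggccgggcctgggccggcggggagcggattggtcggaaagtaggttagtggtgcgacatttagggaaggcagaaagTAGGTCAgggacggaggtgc
Of 32851 such windows of 27025 genes, 7.15% held CACGTG, 4.68% CACGTT, 2.32% the D-box and 2.61% the ROR element. *Cry2* also held CACGTT, and the windows of *Clock*, *Npas2* and *Dbp* held none of the 4. Nor did the first start of *Arntl* and the second start of *Per1*, which are not shown, hold any of them. A match is a run of letters in this window and not evidence of binding.

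Between 7711010 and 14829291 reads per CFA library and between 7672199 and 14336914 per HFA library were counted on genes. Values are CPM, counts scaled to the size of the library, after TMM normalization, and an interval on a single library is an exact 95% Poisson interval, which covers counting error only, since the reads carry no molecular identifiers. HFA5 stood apart from the rest, with a median correlation of 0.798 with the other libraries against 0.918 to 0.970 for each of the others. The tissue also differed between libraries. The summed level of 5 B cell markers was 266 CPM in CFA2, 681 CPM in CFA5 and 2047 CPM in HFA5 and between 2.93 and 4.10 CPM in the other 7. Markers of adipocytes and of luminal and basal epithelium, the defining cells of a mammary fat pad, had counts in every library. The sum of 5 skeletal muscle markers (*Acta1*, *Ckm*, *Myh4*, *Tnnt3* and *Mylpf*) ran from 635 CPM in HFA5 to 49640 CPM in HFA4. In such bulk tissue, more cells of a type and more RNA per cell cannot be told apart.

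*Arntl* (ENSMUSG00000055116, chr7:113207465-113314126, plus strand), the obligate partner of the activating pair, was measured at 10.9, 12.5, 12.9, 5.13 and 9.48 CPM in CFA1 to CFA5 and at 6.86, 7.76, 2.84, 5.30 and 16.4 CPM in HFA1 to HFA5. The lowest library was HFA3, with 20 reads and an interval of 1.73 to 4.38 CPM, and the highest was HFA5, with 257 reads and an interval of 14.4 to 18.5 CPM, so the 2 extremes came from the same diet and the diets overlapped. *Npas2* (ENSMUSG00000026077, chr1:39193731-39363236, plus strand) was the least abundant member, at 0.597 to 3.95 CPM in CFA and 0.426 to 1.12 CPM in HFA, and HFA3 held only 3 of its reads. It was highest in CFA1, CFA2 and CFA3, which were also 3 of the 4 libraries with most *Arntl*. HFA5, however, had the most *Arntl* and nearly the least *Npas2* (0.446 CPM, interval 0.179 to 0.918). *Clock* (ENSMUSG00000029238, chr5:76209868-76304792, minus strand), which cycles weakly in most tissues, ran from 52.9 CPM in HFA3 to 91.1 CPM in CFA3, a range of 1.72-fold.

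*Nr1d1* (ENSMUSG00000020889, chr11:98767932-98775333, minus strand), the nuclear receptor that represses *Arntl*, was at 82.95, 59.1, 131, 168 and 133 CPM in CFA1 to CFA5 and at 231, 161, 176, 256 and 63.0 CPM in HFA1 to HFA5. HFA1 and HFA4 were the highest and CFA2, HFA5 and CFA1 the lowest, and 3 HFA libraries lay above the highest CFA library. *Dbp* (ENSMUSG00000059824, chr7:45705088-45710203, plus strand), a transcription factor of the clock output, was at 42.7, 33.5, 39.65, 73.6 and 72.1 CPM in CFA and at 68.75, 64.1, 78.5, 118 and 33.5 CPM in HFA. HFA4 was again the highest, and CFA2 and HFA5 were the lowest with nearly equal values, so the same libraries stood at both ends. *Cry2* (ENSMUSG00000068742, chr2:92403646-92434043, minus strand), one of the repressors, followed them at 49.4, 38.3, 47.5, 66.3 and 52.8 CPM in CFA and at 78.7, 72.6, 76.3, 92.2 and 29.7 CPM in HFA. For *Cry2*, 4 HFA libraries lay above all CFA libraries and HFA5 lay below them all. *Per3* (ENSMUSG00000028957, chr4:151003652-151044665, minus strand), the third *Period* gene, showed the same split, at 69.2, 57.4, 46.2, 83.7 and 68.7 CPM in CFA and at 90.7, 85.5, 109, 98.9 and 41.4 CPM in HFA.

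*Per1* (ENSMUSG00000020893, chr11:69095217-69109960, plus strand), which answers to glucocorticoids and other acute signals besides the clock, was at 84.95, 73.6, 36.8, 69.4 and 71.3 CPM in CFA and at 79.05, 119.6, 184, 100.4 and 63.4 CPM in HFA. Here CFA3 was the lowest library and HFA3 the highest, 4.99-fold apart, and neither stood at an end for *Nr1d1* or *Dbp*. *Per2* (ENSMUSG00000055866, chr1:91415982-91459324, minus strand), the other main repressor of the loop, gave the same 2 ends, at 38.5, 32.0, 16.1, 40.9 and 31.6 CPM in CFA and at 36.0, 42.1, 72.8, 31.55 and 27.4 CPM in HFA. *Cry1* (ENSMUSG00000020038, chr10:85131700-85185064, minus strand), the late repressor, varied little, from 11.2 to 19.5 CPM, and HFA5, HFA3 and CFA5 were its highest libraries. HFA3, the library with the fewest reads, was thus the lowest in value for *Arntl*, *Clock* and *Npas2* and the highest for *Per1*, *Per2* and *Per3*. Its counting interval was apart from all others only for *Per1* and *Per2*. For *Clock* it was 47.7 to 58.6 CPM, against 50.5 to 58.5 CPM in CFA5, and for *Per3* 101 to 117 CPM, against 93.1 to 105 CPM in HFA4. The intervals of *Arntl* (1.73 to 4.38 CPM) and *Npas2* (0.0878 to 1.24 CPM) in HFA3 also overlapped those of other libraries.

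**Figure D1:**
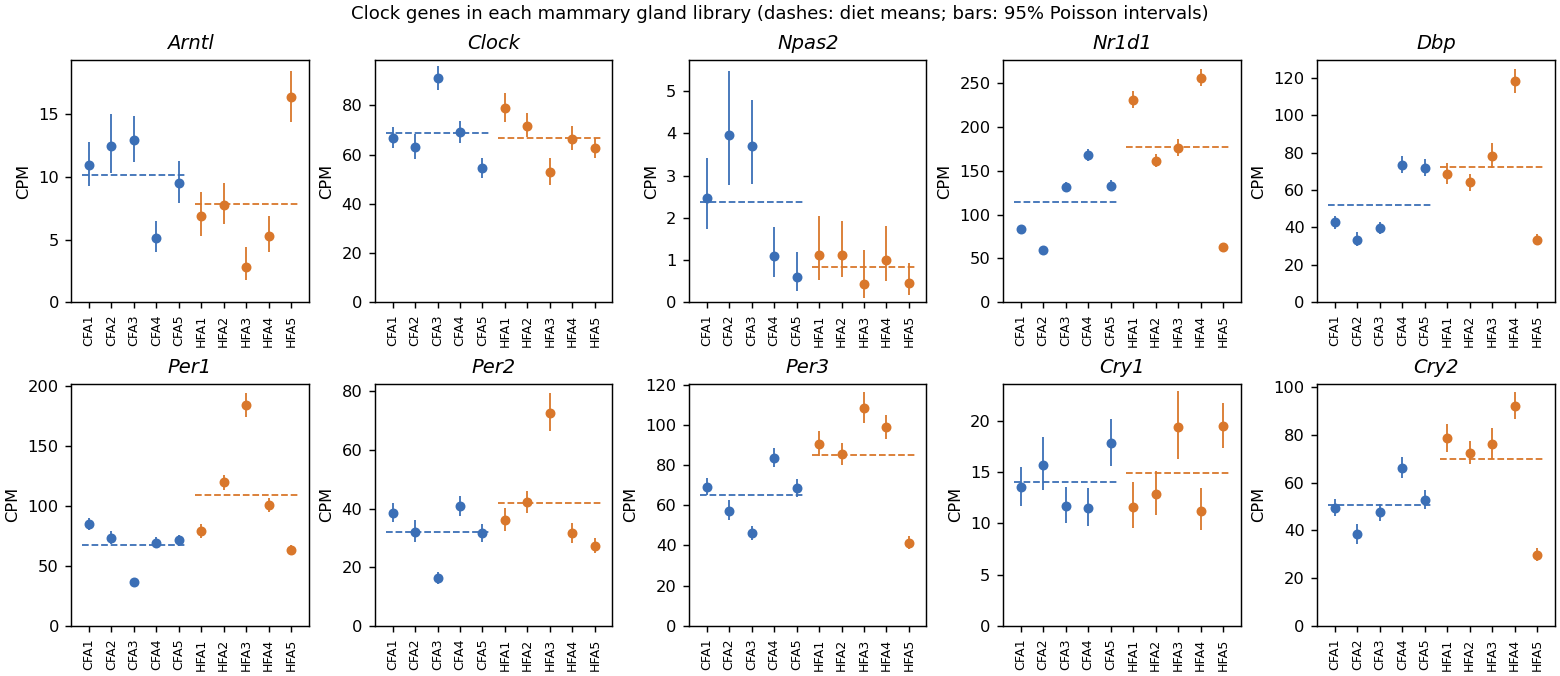
The 10 clock genes in each library, in CPM after TMM scaling (y axis, starting at 0), with CFA libraries in blue and HFA libraries in orange. Points are single libraries with exact 95% Poisson intervals and dashes are diet means, and the diets overlap in every panel, with CFA3 lowest and HFA3 highest for *Per1* and *Per2* and HFA5 highest for *Arntl*.

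Per exon length, *Nr1d1* was the most abundant member (47.5 ± 21.6 RPKM, mean ± SD, n = 10), followed by *Dbp* (20.9), *Per1* (15.7), *Cry2* (9.56), *Per3* (7.81), *Per2* (6.30), *Clock* (4.94), *Cry1* (4.34), *Arntl* (1.20 ± 0.558) and *Npas2* (0.332 ± 0.274 RPKM). Among neighbours in that order, *Cry1* lay above *Arntl* and *Arntl* above *Npas2* by more than their SDs. For the other neighbours the SDs overlapped, but an SD between mice does not measure the order of 2 genes within a library. *Nr1d1* lay above *Dbp* in every library, with 19.2 against 11.2 RPKM in CFA2 and 83.3 against 39.5 RPKM in HFA4. *Cry2* lay above *Per3* in every library, though narrowly in HFA5 (4.69 against 4.31 RPKM). The order counts all exon bases, and 18.0% of those of *Dbp* and 8.55% of those of *Nr1d1* overlap the antisense genes *Sphk2* and *Thra*, whose reads could not be told apart from theirs where the counting did not use strand. The overlap was 4.67% for *Cry2* and 0.439% for *Arntl*, and the other 6 members had none.

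Of the 45 pairs of libraries, the 95% counting intervals were separate in 40 for *Nr1d1*, 38 for *Per3*, 37 for *Cry2*, 36 for *Per1*, 34 for *Dbp* and 29 for *Per2*, against 26 for *Arntl* and *Clock*, 18 for *Cry1* and 17 for *Npas2*, of which the last had few reads. Most genes differed between these libraries in the same way. Among the 1000 tested genes nearest in abundance the median was 33 pairs for *Nr1d1*, 27 for *Per3*, 25 for *Cry2* and *Dbp*, 29 for *Per1*, 22 for *Per2*, 15 for *Arntl*, 26 for *Clock*, 17 for *Cry1* and 6 for *Npas2*, so *Clock* and *Cry1* lay at or next to the middle and the other 8 members between the 73.8 and 89.8 percentiles. The spread between mice of the same diet was set against the same genes. The SD of log2 CPM within diets was 0.71 for *Nr1d1*, at the 90.3 percentile of the genes nearest to it, and 0.59 for *Dbp*, at the 85.0 percentile. *Per2*, *Per1*, *Cry2*, *Arntl*, *Npas2* and *Per3* lay between the 75.4 and 81.7 percentiles. *Clock* (44.5) and *Cry1* (46.5) lay near the middle, so that 8 of the 10 members varied more than most genes of their level and these 2 did not.

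**Figure D2:**
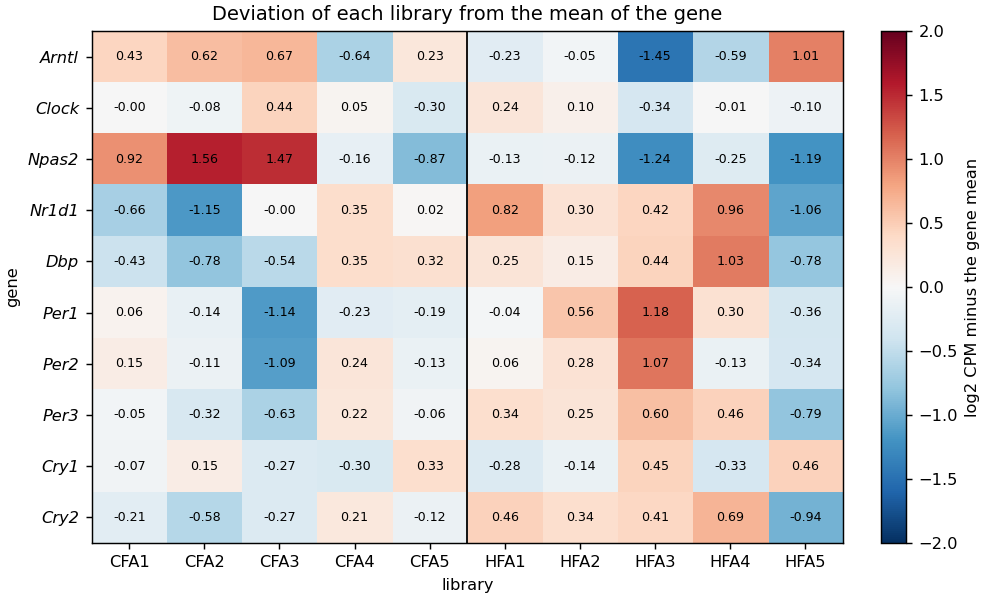
Deviation of each library (columns) from the mean of each clock gene (rows), in log2 CPM with a prior count of 2, red above and blue below the mean. *Arntl* lies 1.45 below its mean in HFA3 and 1.01 above it in HFA5, while *Nr1d1*, *Dbp* and *Cry2* lie 0.69 to 1.03 above theirs in HFA4 and 0.78 to 1.06 below in HFA5.

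As a description of where each library stood, the log2 ratio of *Arntl* to *Dbp*, which normalization between libraries leaves nearly as it is, was −1.95, −1.41, −1.60, −3.80 and −2.91 in CFA1 to CFA5 and −3.29, −3.02, −4.71, −4.44 and −1.03 in HFA1 to HFA5. The libraries thus spanned 3.68 log2 units, from HFA3 to HFA5, both on the HFA diet. The diet means were −2.33 ± 1.00 for CFA and −3.30 ± 1.46 for HFA (SD, n = 5), a difference of −0.96 that was smaller than the SD within either diet. It was −1.53 without HFA5, which exceeded both SDs (1.00 in CFA and 0.83 in the 4 HFA libraries left), and −0.61 without HFA3. The ratio of *Per2* to *Nr1d1* ordered the libraries otherwise. It was lowest in HFA4 (−3.02) and CFA3 (−3.01) and highest in CFA2 (−0.88) and CFA1 (−1.10).

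Several members moved together or against each other across libraries. Of the 45 pairs of members, 16 (35.6%) were correlated at an adjusted p below 0.05 (Pearson's r on log2 CPM, 10 libraries, permutation test, two-sided, adjusted over 45 pairs), 9 positively and 7 negatively, and 11 of these also passed by Spearman's rho. The lowest absolute r among them was 0.734, and 13.2% of all pairings of a member with any tested gene reached it. That share was 32.4% for *Cry2*, 24.8% for *Nr1d1*, 23.1% for *Per3* and 20.9% for *Dbp* but 2.71% for *Per1*, 1.54% for *Per2* and 0.858% for *Clock*, so genes in the first of these groups had many partners outside the clock.

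*Arntl* ran against 6 of the 7 members that its pair drives, and not against *Cry1* (r = 0.098, adjusted permutation p = 0.803, rho 0.394 with adjusted p = 0.423, r 0.535 without HFA3 and HFA5). With *Per3*, r was −0.910 (adjusted permutation p = 0.00315) and rho −0.915 (adjusted p = 0.0066), and r was −0.888 without those 2 libraries, the farthest from the median of *Arntl*. With *Dbp*, r was −0.812 (adjusted permutation p = 0.0207), rho −0.891 (adjusted p = 0.0103) and r without the same 2 libraries −0.880. The pairs with *Cry2* (r = −0.833, rho −0.855), *Nr1d1* (−0.744, rho −0.842), *Per2* (−0.756, rho −0.685) and *Per1* (−0.734, rho −0.624) passed by Pearson's r as well, at adjusted permutation p from 0.0155 to 0.0465. For *Per2* and *Per1* rho did not pass (adjusted permutation p = 0.112 and 0.15), and without those 2 libraries r was −0.525 and −0.490, so both rest on them. Of all tested genes, 0.211% were as negatively correlated with *Arntl* as *Per3* was, 1.68% as *Cry2*, 2.35% as *Dbp*, 5.11% as *Per2*, 5.89% as *Nr1d1* and 6.56% as *Per1*.

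*Nr1d1*, *Dbp* and *Cry2* moved together. For *Cry2* and *Nr1d1*, r was 0.939 (adjusted permutation p = 0.00135), rho 0.964 (adjusted p = 0.0036), and r was 0.909 without HFA4 and HFA5. For *Nr1d1* and *Dbp*, r was 0.896 (adjusted permutation p = 0.00349), rho 0.891 (adjusted p = 0.0103), and r was 0.797 without CFA2 and HFA5. For *Cry2* and *Dbp*, r was 0.905 (adjusted permutation p = 0.00423), rho 0.855 (adjusted p = 0.017), and r was 0.859 without HFA4 and HFA5. *Per3* went with them, at r = 0.922 with *Cry2* (adjusted permutation p = 0.00315), rho 0.939 (adjusted p = 0.0045) and r = 0.942 without CFA3 and HFA5. It was the only member with a positive correlation that passed both with these 3 genes (*Dbp* 0.856, *Nr1d1* 0.772) and with *Per1* (0.780) and *Per2* (0.756), at adjusted permutation p from 0.012 to 0.0346, although rho did not pass for *Per2* (0.648, adjusted p = 0.131) and without CFA3 and HFA3 r was 0.637 for *Per1* and 0.622 for *Per2*. Of all tested genes, 1.76% were as closely correlated with *Cry2* as *Nr1d1* was, 2.79% as *Per3* and 4.2% as *Dbp*. With *Nr1d1*, 3.0% were as closely correlated as *Dbp* was and 11.2% as *Per3*.

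*Per1* and *Per2* formed a pair of their own, with r = 0.918 (adjusted permutation p = 0.0155). Only 0.0192% of the other tested genes were as closely correlated with *Per1* as *Per2* was. This pair rests on 2 libraries, since without CFA3 and HFA3 r was 0.503, and rho was 0.697 (adjusted p = 0.103). Their correlations with *Nr1d1* did not pass, at 0.334 for *Per1* (adjusted permutation p = 0.491, rho 0.491 with adjusted p = 0.306, r 0.485 without CFA3 and HFA3) and 0.256 for *Per2* (adjusted permutation p = 0.548, rho 0.309 with adjusted p = 0.515, r 0.379 without the same libraries). *Clock* and *Cry1*, the 2 least variable members, were negatively correlated, with r = −0.780 (adjusted permutation p = 0.0228), rho −0.697 (adjusted p = 0.103) and r = −0.751 without CFA3 and HFA3.

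**Figure D3:**
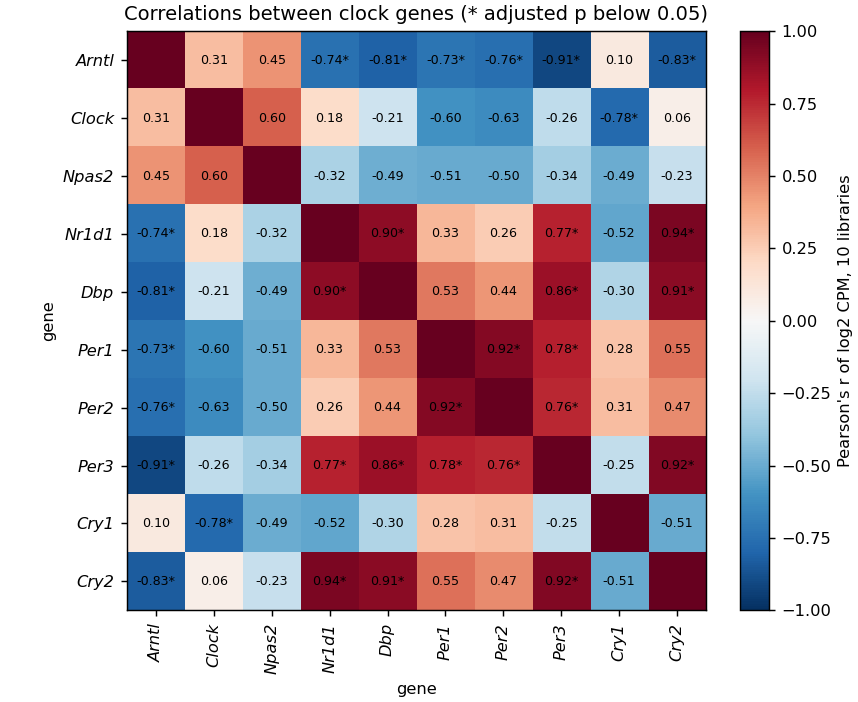
Pearson's r of log2 CPM between the 10 clock genes over the 10 libraries, red positive and blue negative, with an asterisk at an adjusted permutation p below 0.05. *Arntl* is negative with all 3 *Per* genes, *Cry2*, *Nr1d1* and *Dbp*, and *Cry2*, *Nr1d1* and *Dbp* are positive with each other, at r between 0.896 and 0.939.

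The muscle markers moved along with these genes. Their sum was 15690, 6117, 19430, 30370 and 37610 CPM in CFA1 to CFA5 and 41770, 45760, 37460, 49640 and 635 CPM in HFA1 to HFA5, so HFA5, CFA2 and CFA1, the 3 lowest libraries for *Nr1d1*, were also the 3 lowest for muscle, and HFA4 was the highest for both. When the mean log2 level of the muscle markers was taken out of each gene, 8 pairs passed, 7 of them among the 16, and all 16 kept the sign of r. *Arntl* with *Per3* (−0.831, adjusted permutation p = 0.0412) and *Cry2* with *Nr1d1* (0.801, adjusted p = 0.0447) were among the 7, and *Arntl* with *Dbp* was not (−0.619, adjusted p = 0.137). Within the 7 libraries with few B cell transcripts all 16 again kept their sign, but none of them passed. Only 2 other pairs did, *Arntl* with *Npas2* (0.956) and *Npas2* with *Per3* (−0.943), each at an adjusted exact permutation p of 0.0179. For the 16 pairs the absolute r there lay between 0.569 and 0.946, with −0.860 for *Arntl* and *Per3* and 0.946 for *Cry2* and *Dbp*, and 7 libraries need a higher r to pass than 10 do. When the mean log2 level of the B and T cell markers was taken out of each gene over all 10 libraries, 16 pairs passed, 11 of them among the first 16, and all of the first 16 kept their sign. The part of other cell types in these correlations was not tested.

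**Figure D4:**
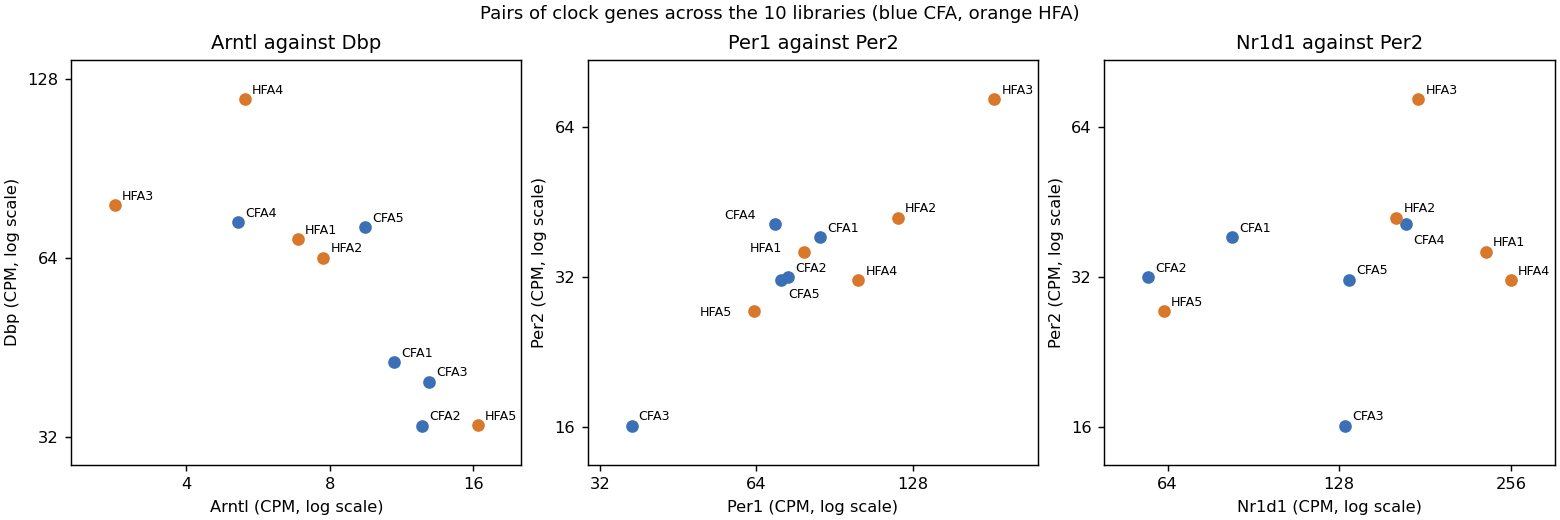
Pairs of clock genes, each point a library (blue CFA, orange HFA), in CPM on log axes. *Dbp* falls as *Arntl* rises from 2.84 CPM in HFA3 to 16.4 CPM in HFA5, CFA3 and HFA3 set the range of *Per1* and *Per2*, and *Per2* shows no such relation with *Nr1d1* (r = 0.256).

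The genes whose pattern over the 10 libraries was most like that of *Dbp*, by Pearson's r of log2 CPM among 11265 genes with an average log2 CPM of at least 3, were *Bckdk* (0.979), a kinase that controls breakdown of branched-chain amino acids, *Gm15920* (0.975), *Coq9* (0.974), needed to make coenzyme Q, *Vapb* (0.974) and *Nfs1* (0.972), which supplies sulfur for iron-sulfur clusters. The most opposite were *Gm15542* (−0.976), *Pum3* (−0.966), *Gm7816* (−0.966), *Ebna1bp2* (−0.962) and *Gm4754* (−0.960). For *Arntl* the most like were *Zfp322a* (0.969), *Tardbp* (0.954), *Utp20* (0.952), *Katnbl1* (0.951) and *Rbm26* (0.951), and the most opposite *Pnpla2* (−0.964), the fat triglyceride lipase, *Sh3glb2* (−0.955), *Por* (−0.955), *Grina* (−0.950) and *Thap4* (−0.950). Members were left out of both rankings, and all 20 genes lay beyond the highest absolute r of a member, 0.905 for *Dbp* and 0.910 for *Arntl*. These are descriptions over 10 libraries that differ in depth and tissue makeup.

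Between the diets, 0 of the 10 clock genes passed an adjusted p of 0.05 when 5 libraries were set against 5 in edgeR's quasi-likelihood test, and 0 of all 15610 genes did (0.0%). No member passed by the likelihood ratio test, DESeq2 or limma voom without weights either. At an unadjusted p below 0.05 there were 2 members, *Per1* with a positive and *Npas2* with a negative value, against 1149 genes (7.36%), 604 of them higher (3.87%) and 545 lower (3.49%) in HFA. With upper-quartile scaling those were 352 higher and 740 lower. *Per1* averaged 67.2 ± 18.0 CPM in CFA and 109 ± 46.8 CPM in HFA (SD), a log2 fold change of 0.70 (SE 0.30, adjusted p = 0.667). *Npas2* averaged 2.36 ± 1.51 CPM in CFA and 0.821 ± 0.355 in HFA, and its log2 fold change was −1.50 (SE 0.54, adjusted p = 0.655).

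For the other 8 members the log2 fold change was 0.63 for *Nr1d1* (SE 0.38), 0.47 for *Dbp* (SE 0.33), 0.46 for *Cry2* (SE 0.27), 0.40 for *Per2* (SE 0.31), 0.39 for *Per3* (SE 0.25), 0.088 for *Cry1* (SE 0.22), −0.051 for *Clock* (SE 0.16) and −0.37 for *Arntl* (SE 0.42), with adjusted p from 0.71 to 0.946. Thus 7 members had a positive value, as 9372 of the 15610 genes did, and the 3 activators a negative one, and the median was 0.39 against 0.064 over all genes tested. In no member were the diets free of overlap, against 0.993% of all genes. Without HFA5 the values were 0.80 for *Nr1d1*, 0.61 for *Dbp*, 0.61 for *Cry2* and −0.87 for *Arntl*, and 0 members passed, with adjusted p from 0.0739 to 0.8535. HFA3 carried much of the *Per* values, which without it were 0.43 for *Per1* and 0.105 for *Per2*, with −0.16 for *Arntl*. Without HFA4 *Dbp* was at 0.23, without CFA3 *Per2* was at 0.18 and *Per3* at 0.24, and without CFA2 *Nr1d1* was at 0.42 and *Dbp* at 0.30, and 0 members passed in any of these. With the quality weights of limma voom *Cry2* passed (0.63, adjusted p = 0.0394), as did 6.64% of all genes. In the 7 libraries with few B cell transcripts 0 members passed, against 2.98% of all genes, and the diets were apart for *Per3* and *Cry2*, against 20.4% of all genes. An SE of 0.16 to 0.54 set what could be detected at this spread between mice.

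The sample titles hold 4 digits, of which the second is 2 for CFA1, CFA2, HFA1, HFA2 and HFA3 and 3 for the other 5 libraries, with no statement of what it stands for. Within the libraries with digit 2, 3 members were higher in HFA. *Nr1d1* had a log2 fold change of 1.44 (SE 0.23, adjusted p = 0.0303), *Dbp* 0.91 (SE 0.17, adjusted p = 0.0342) and *Cry2* 0.81 (SE 0.15, adjusted p = 0.0345), from the same edgeR test. In the same comparison 1418 of 15549 genes passed (9.12%), 5.01% of all genes as higher. The diets did not overlap for 6 members (*Arntl*, *Npas2*, *Per3*, *Cry2*, *Nr1d1* and *Dbp*), against 49.4% of all genes, a share near that of the members. The muscle sum was 6117 and 15690 CPM in the 2 CFA libraries of this comparison and 37460 to 45760 CPM in the 3 HFA libraries, and its part in these differences was not tested.

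Within the libraries with digit 3, 0 members and 0 of 16390 genes passed (0.0%), with 503 genes (3.07%) and 0 members at an unadjusted p below 0.05, and the values were 0.072 for *Nr1d1* (SE 0.61), 0.22 for *Dbp* (SE 0.61) and 0.055 for *Cry2* (SE 0.52). Groups were apart in 0 members against 15.9% of all genes. The muscle sum ran from 19430 to 37610 CPM in CFA there and was 49640 and 635 CPM in the 2 HFA libraries. A test of the difference between the 2 digits passed for 0 members and 0 genes (0.0%), with 1320 genes (8.46%) and 0 members at an unadjusted p below 0.05 and *Nr1d1* at −1.27 (SE 0.70, adjusted p = 0.568), so the diet differences of the digits were not shown to be unequal. The digits themselves, compared with diet in the model, also gave 0 members and 0 genes (0.0%), with 888 genes (5.69%) and 0 members at an unadjusted p below 0.05. The members with the smallest p there were *Per1* (−0.53, SE 0.27, adjusted p = 0.681) and *Per2* (−0.51, SE 0.29, adjusted p = 0.681), digit 3 against 2.

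**Figure D5:**
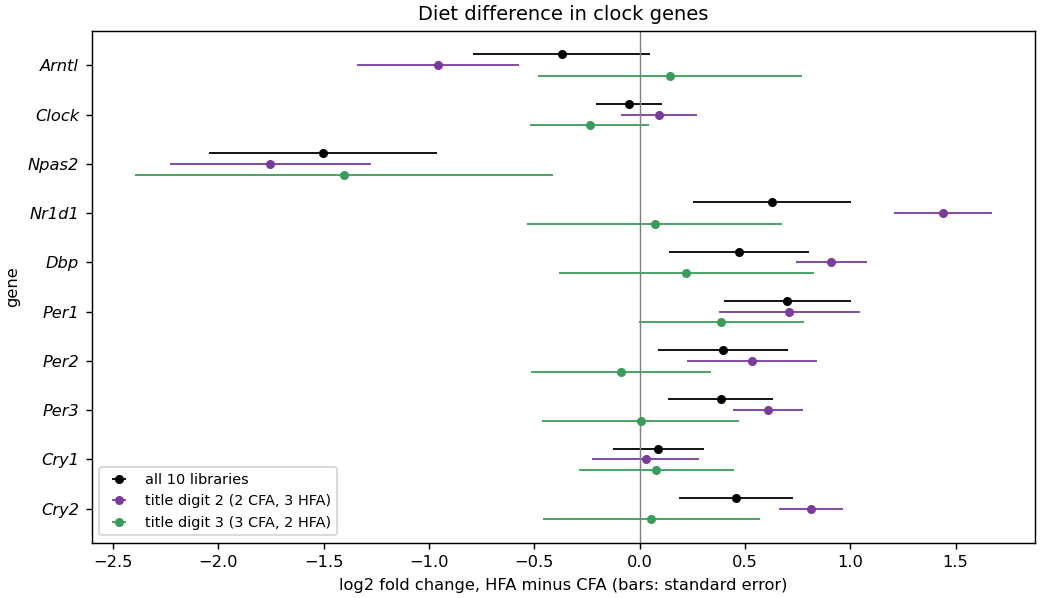
Log2 fold change of each clock gene, HFA minus CFA (x axis), with its standard error as a bar, over all 10 libraries (black), within title digit 2 (purple, 2 CFA and 3 HFA) and within title digit 3 (green, 3 CFA and 2 HFA). *Nr1d1* is at 1.44 within digit 2 and 0.072 within digit 3.

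Other genes of the clock were read from a list of 22, of which 21 were tested and *Rorb* was too low. None passed between the diets. The value was positive for 15, as for 9372 of all 15610 genes, and negative for 6, with a median of 0.19 against 0.064 over all genes. An unadjusted p below 0.05 was found for 2, against 7.36% of all genes. These were *Ciart*, a repressor of the ARNTL pair (log2 fold change 1.18, SE 0.42, adjusted p = 0.655), and *Nampt*, the enzyme of the NAD salvage pathway (0.41, SE 0.16, adjusted p = 0.655). *Ciart* was at 3.09, 4.17, 2.15, 3.25 and 5.22 CPM in CFA1 to CFA5 and at 4.21, 7.42, 16.6, 8.78 and 3.76 CPM in HFA1 to HFA5, lowest in CFA3 and highest in HFA3, as *Per1* and *Per2* were. *Nfil3*, which competes with DBP for D-boxes, was also highest in HFA3 (12.2 CPM, against 5.30 to 8.11 CPM elsewhere).

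The relatives of *Dbp* and *Nr1d1* were read beside them. *Tef* ran from 145.8 CPM in HFA5 to 397 CPM in HFA4, with a diet log2 fold change of 0.44 (SE 0.27), and *Hlf* from 25.2 to 58.2 CPM (0.36, SE 0.24). *Nr1d2* ran from 123 CPM in HFA5 to 222 CPM in HFA3 (0.22, SE 0.17). The repressors *Bhlhe40* and *Bhlhe41*, which bind the same E-boxes as the ARNTL pair, had values of 0.19 (SE 0.31) and −0.35 (SE 0.33). Within title digit 2, *Tef* (0.82, adjusted p = 0.0435) and the deubiquitinase *Usp2* (1.72, adjusted p = 0.0345) were higher in HFA and *Bhlhe41* (−0.66, adjusted p = 0.0426) was lower, 3 of the 21 against 9.12% of all genes. *Usp2* is named because it passed here. Within digit 3 the log2 fold changes were 0.058 for *Tef* (SE 0.52), −0.096 for *Usp2* (SE 0.92) and −0.14 for *Bhlhe41* (SE 0.63), with adjusted p from 0.997 to 0.998. Across the digits, the kinase *Wee1*, which holds back entry into mitosis and is an E-box target, had the only unadjusted p below 0.05 of the list (−0.66, SE 0.26, adjusted p = 0.681).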

How the data were processed

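The 10 libraries are those the study kept of the mammary glands it had sequenced as 75 bp paired reads. Per the labels, libraries were made with the TruSeq v2 kit and reads were aligned with TopHat2 2.0.14 and Bowtie2 2.2.5 to GRCm38 and counted with HTSeq 0.6.1. The deposited values are raw whole-number counts per Ensembl gene. Reads with more than 1 alignment, 28.8% to 33.9% of the lines counted, were left out, and whether counting used strand is not given in the sources used here. HTSeq's summary lines entered no test. The study's model held cage, which the labels do not give. Replicate numbers follow sample order and pair nothing.

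For testing, edgeR 4.0.16 under R 4.3.3 was used (filterByExpr, TMM scaling, quasi-likelihood test, Benjamini-Hochberg adjustment over all genes tested, threshold 0.05) without covariates. An SE is the log2 fold change over the root of F. Correlations used 100000 permutations of log2 CPM with a prior count of 2, all orderings (exact) for 7 to 9 libraries, in scipy 1.17.1 and numpy 2.4.6. RPKM is CPM per kilobase of GENCODE M21 exons. In counts simulated for the comparison of diets, 153 of 200 genes changed 4-fold were recovered with 5 false calls among 15369 genes, and for the title digits 147 with 7 false calls among 15381 genes. Each gene was drawn independently around 1 mean, without the shared tissue differences of these libraries. A 4-fold change is also larger than that of any member between diets, so these counts do not give the power for the members. Members, lists and tests were chosen with earlier results of these data known. The genes named are the members, *Nr1d2*, *Tef*, *Hlf*, *Nfil3*, *Bhlhe40*, *Bhlhe41* and *Ciart*, listed genes with an unadjusted p below 0.05 between diets or title digits, the 5 genes at each end of the correlations with *Dbp* and *Arntl*, and the top gene by level of every cell type list. Some of the marker genes this takes in are not reported here. *Usp2* and *Rbm3* were chosen after their values were seen. Other settings tried were upper-quartile and RLE scaling, a filter of CPM above 1 in at least 5 libraries or none, the likelihood ratio test, DESeq2 1.42.0, limma 3.58.1 voom without and with quality weights, covariates of lymphoid markers and of the title digit, a replicate block, a prior count of 0.5 and each library left out. The comparisons within title digits, the muscle covariate and the 7 libraries with few B cell transcripts were added after seeing the data.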

Additional observations from a re-analysis of the deposited data

Results flagged for a closer look

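Libraries that stood apart were sought on log2 CPM among the 20 sets of 5 libraries formed by a clock gene and a diet. In 4 sets a library was apart from the other 4 by a gap above Dixon's critical value of 0.71 of the whole range. Chance gives about 5% of such sets. The flags depend on the log2 scale, since in the CPM printed below each gap is a smaller part of the range and falls short of 0.71. For *Per1* in CFA the log2 values were 5.21 in CFA3 and 6.12 to 6.41 in the others. Over all tested genes 12.9% of such sets held one. The 4 form 2 pairs of correlated genes, *Per1* with *Per2* and *Per3* with *Cry2*, so they are not 4 separate events. In the CFA group, CFA3 was the low library for *Per1* (36.8 CPM, the others 69.4 to 84.95 CPM) and for *Per2* (16.1 CPM, the others 31.6 to 40.9 CPM). In the HFA group, HFA5 was the low library for *Per3* (41.4 CPM, the others 85.5 to 109 CPM) and for *Cry2* (29.7 CPM, the others 72.6 to 92.2 CPM). As the lowest or highest library of its diet, HFA5 stood apart in this way in 18.1% of all tested genes and CFA3 in 0.596%. HFA5 also had the lowest muscle marker sum, 635 CPM, and the highest B cell marker sum, 2047 CPM, of the 10 libraries. In CFA3 the muscle marker sum was 19430 CPM, the median of the CFA group. The part of these markers in the values was not tested.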

How the results depend on the processing

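The count of genes that differed between diets, 0 by the quasi-likelihood test, was 60 by DESeq2, 33 with the likelihood ratio test, 1037 under limma voom's quality weights, 2 with the lymphoid covariate, 469 in the 7 libraries with few B cell transcripts and 1418 within title digit 2, and 0 to 6 with 1 library left out (6 without HFA5). The count of clock genes, 0, was 1 with quality weights (*Cry2*) and 3 within title digit 2, and 0 under every other alternative run. The interaction of diet and title digit gave 0 to 3 clock genes with 1 library left out, 3 without HFA4 (*Nr1d1*, *Dbp* and *Cry2*), when 4058 of 15840 genes passed and digit 3 kept a single HFA library, assumed to vary like the rest. The count of correlated pairs, 16, was 10 after removal of diet means and 8 after removal of the muscle mean, 7 of them among the 16. In the 7 libraries it was 2, neither of them among the 16. It was 9 to 14 with 1 library left out (9 without HFA3). Diet fold changes reversed within title digit 3 for *Arntl* (0.14) and *Per2* (−0.088) and within digit 2 for *Clock* (0.093), and with 1 library left out *Clock* ran from −0.13 to 0.021 and *Cry1* from −0.072 to 0.19. Of the members' diet fold changes under alternatives, 95 of 100 with a library left out and 143 of 150 others kept their direction and side of the threshold. Other causes of these changes were not tested, beyond the smaller number of libraries. The last 3 title digits recur in 4 pairs of a CFA and an HFA library, whose deviations correlated at 0.298, −0.294, 0.111 and 0.410, so the numbers are not shown to pair the mice. With this replicate block, 0 genes and 0 clock genes passed, with 1066 genes at an unadjusted p below 0.05. Depth limits *Npas2*, with 3 to 57 reads per library, and *Arntl*, with 20 to 257.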

Other observations

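Genes that respond to glucocorticoids, which also reach *Per1*, were read as a list of 10. All 10 had a positive value between HFA and CFA, as 9372 of all 15610 genes tested did. Within title digit 2 the value was positive for 7 of the 10, and within digit 3 for 8. Over all libraries the median log2 fold change was 0.65 against 0.064 over all genes, and 0 passed at an adjusted p below 0.05 by edgeR. At an unadjusted p below 0.05, as were 7.36% of all genes, were *Pdk4*, the kinase that shuts off pyruvate oxidation in fasting (1.02, SE 0.27, adjusted p = 0.648), and *Zbtb16* (0.88, SE 0.31, adjusted p = 0.655). *Pdk4* was at 375, 256, 362, 471 and 607 CPM in CFA1 to CFA5 and at 643, 894, 1121, 963 and 585 CPM in HFA1 to HFA5. Between the title digits, *Errfi1* (−0.97, SE 0.31), *Cebpd* (−0.76, SE 0.25) and *Zbtb16* (−0.72, SE 0.25) had an unadjusted p below 0.05, each with an adjusted p of 0.681. Over all genes 5.69% had an unadjusted p below 0.05 there.

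Of 10 immediate early genes, which answer within minutes to handling and other stimuli, 3 had a positive and 7 a negative value between diets and 0 passed. *Nr4a1* had the only unadjusted p below 0.05 (1.06, SE 0.40, adjusted p = 0.655). Of all 15610 genes tested between diets, 9372 had a positive value, 7.36% an unadjusted p below 0.05, and 0 passed. Between the title digits 8 of the 10 had a negative value, digit 3 against 2, with *Atf3* (−1.03, SE 0.22), *Fos* (−0.92, SE 0.40) and *Jun* (−0.56, SE 0.19) at an unadjusted p below 0.05 and an adjusted p of 0.681. Over all genes, 6310 of 15610 had a negative value there and 5.69% an unadjusted p below 0.05. Of 8 genes that respond to body temperature, 2 had a positive and 6 a negative value between diets, and 0 passed. Their median was −0.18, against 0.064 over all genes tested. *Cirbp*, a cold-induced RNA-binding protein, alone had an unadjusted p below 0.05 (0.52, SE 0.24, adjusted p = 0.67). *Rbm3* of the same list had a negative value (−0.20, SE 0.40).

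None of the cell type markers passed between diets or title digits by edgeR, and 0 of all 15610 genes did. An unadjusted p below 0.05 was found for 7.36% of all genes between diets and 5.69% between digits. At an unadjusted p below 0.05 between diets were *Cox8b* (1.15) and *Elovl3* (2.31) of brown adipocytes, *Mbp* (0.77) of Schwann cells, *Epcam* (−0.96) of luminal and *Krt17* (−1.27) of basal epithelium, as log2 fold changes, and between digits *Krt17* (−1.48), *Krt8* (−1.08), *Elf5* (−0.96), *Col1a1* (−1.60), *Col1a2* (−1.49) and *Sox10* (−0.92). The most abundant marker of each list ran from 1081 to 2087 CPM for *Adipoq* (adipocyte), 1.51 to 1031 CPM for *Ucp1* (brown adipocyte), 0.275 to 472.5 CPM for *Ms4a1* (B cell), 1.22 to 207 CPM for *Lck* (T cell), 78.3 to 472.5 CPM for *Krt18* (luminal epithelium), 66.5 to 422 CPM for *Oxtr* (basal epithelium), 192 to 19000 CPM for *Myh4* (skeletal muscle), 22.9 to 186 CPM for *Csf1r* (macrophage), 139 to 255 CPM for *Pecam1* (endothelium), 153 to 1343 CPM for *Col1a2* (fibroblast) and 57.75 to 157.5 CPM for *Mbp* (Schwann cell).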
